A study of Homo sapiens with 3 samples.

Results

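Interferon-stimulated genes were examined in a breast cancer cell line and in a paclitaxel-resistant line made from it. They were taken from a list of 41 genes, holding interferon signalling factors and genes that interferon is known to switch on, and each was found by its symbol among the 46427 genes of the expression table. MM468 is MDA-MB-468, a human epithelial cell line derived from triple-negative breast cancer, a subtype that lacks the estrogen receptor, the progesterone receptor and HER2. RNA-seq was run on parental MM468 cells, which the labels give as wild type and untreated, and on MM468/PR cells, the survivors of exposure to paclitaxel at 2 to 320 nM. Paclitaxel is a taxane that stabilizes microtubules. MM468/PR cells also carry the label wild type for genotype, and neither the number of clones they came from nor the presence of drug at harvest is given in the sources used here. Neither line was labelled as treated with interferon. There was 1 library for each line, so no difference has a replicate check, no SD can be given and no test was made.

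Interferons are secreted proteins that cells release when they sense foreign or misplaced nucleic acid. They bind receptors on the cell surface, and the receptor-bound kinases of the JAK family then activate STAT proteins, which enter the nucleus with IRF9 or as a dimer and bind response elements in the promoters of target genes. The products of these genes block steps of virus entry, translation and replication, modify proteins with the ubiquitin-like ISG15, present antigen and dampen the signal itself. Many tumour cell lines hold a basal level of these transcripts without added interferon.

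The promoters of these genes carry the DNA elements by which they are recognised, and examples are shown because the genes under them differed in opposite directions between the lines. Of the 41 genes, 32 had an entry in a RefSeq promoter table of GRCh38.p14 (250 bases before to 50 bases after the gene start), and the 9 without one were IRF7, IFIT2, OAS2, OASL, MX2, USP18, IFITM2, GBP2 and TRIM22. The core of the interferon-stimulated response element (ISRE), spelled GAAANNGAAA and searched on both strands, was found in 20 of the 32 promoters (62.5%) and in 874 of 24263 promoters of genes in the expression table (3.6%). The gamma-activated site (GAS), spelled TTCNNNGAA and the same on both strands, was found in 10 of the 32 (31.2%) and in 1883 of the 24263 (7.76%). The elements shared letters with each other in BST2, EPSTI1, IFI27 and IFITM1. Each sequence runs 5′ to 3′ along the strand of its gene, with the matched element in capitals, and the coordinates are of GRCh38.p14. The ISRE cores shown began 107 bases before the start of ISG15, 6 before that of IFITM1, 35 before IFITM3, 130 before BST2, 103 before IFIT1, 122 before IFIT3, 119 before HERC5 and 18 before IFI44.
ISG15: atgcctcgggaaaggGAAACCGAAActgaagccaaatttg (chr1:1013375-1013414, plus strand)
IFITM1: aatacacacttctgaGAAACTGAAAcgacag (chr11:314019-314049, plus strand)
IFITM3: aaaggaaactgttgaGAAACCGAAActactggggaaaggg (chr11:320871-320910, minus strand)
BST2: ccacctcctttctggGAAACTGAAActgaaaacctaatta (chr19:17405736-17405775, minus strand)
IFIT1: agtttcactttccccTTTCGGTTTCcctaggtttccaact (chr10:89392505-89392544, plus strand)
IFIT3: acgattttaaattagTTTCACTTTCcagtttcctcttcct (chr10:89327860-89327899, plus strand)
HERC5: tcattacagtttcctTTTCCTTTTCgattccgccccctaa (chr4:88456985-88457024, plus strand)
IFI44: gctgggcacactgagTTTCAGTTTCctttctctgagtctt (chr1:78649756-78649795, plus strand)
In IFIT1, IFIT3, HERC5 and IFI44 the element lay on the strand opposite to the gene, so it reads as its reverse complement. Some interferon targets, IRF1 among them, are known to respond through the gamma-activated site. In the promoter of IRF1 the search found that site and no ISRE core.
IRF1: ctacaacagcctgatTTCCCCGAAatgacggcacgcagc (chr5:132490874-132490912, minus strand)
In IFI44L, which lies next to IFI44, the search found the ISRE core at 164 and at 73 bases before the start, and the 40 letters around it were the same at both places.
IFI44L: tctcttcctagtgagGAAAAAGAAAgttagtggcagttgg (chr1:78620269-78620308 and chr1:78620360-78620399, plus strand)
These matches are descriptions of letters in a window, and binding was not measured.

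The reads counted on genes summed to 32704885 in the parental line and 43242628 in MM468/PR cells, and the 10 most abundant genes held 8.41% and 6.72% of them. Reads were found on 39 and 40 of the 41 genes. A count of 0 allows up to 3 counts, which is a CPM (count scaled to library size) of 0.0917 in the parental line and 0.0694 in MM468/PR cells. Both libraries had high levels of the epithelial markers EPCAM, KRT8, KRT18, KRT19 and CDH1, with KRT8 at 2032 and 2436 TPM (a transcript level scaled for length and library size), and of EGFR at 1152 and 1288 TPM. The hormone receptor genes were low, with ESR1 at 1.69 and 1.45 TPM and PGR at 0 and 7 counts, whereas ERBB2, the HER2 gene, was at 32.3 and 28.1 TPM. Of 13 markers of leukocytes, fibroblasts and endothelial cells, 12 had at most 44 counts in either library, with CD3E, NKG7, LUM and PDGFRB at 0 in both. The exception was COL1A1, a fibrillar collagen gene, at 659 and 820 counts. Its part in the differences described here was not tested.

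On the TPM scale the 41 genes together summed to 958 in the parental line and 782 in MM468/PR cells. A single gene, IFITM3, held 43.7% and 35.6% of these sums. Without IFITM3 the sums were 540 and 503 TPM, so most of the distance between the lines on this scale was the level of 1 transcript. UBE2L6, the ISG15-conjugating enzyme, was the next highest at 109 and 124 TPM. At the low end, IFI27 had no counts in either library, EPSTI1 had 0 and 3 counts, and MX2 had 14 and 6. In bulk RNA, fewer cells expressing a gene and less of its RNA per cell cannot be told apart.

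The lines were compared on the counts, with library sizes normalized by edgeR's TMM method, for genes with 10 or more counts in 1 of the libraries. The 95% interval given with a fold change was computed from its pair of counts by the exact binomial method. These intervals cover counting error only and leave out the variation between cultures. IFI27 and EPSTI1 fell below the count minimum, and the other 39 genes were compared. In MM468/PR cells 4 of them were higher by at least 2-fold and 12 lower by as much, which is 10.3% and 30.8%, beside 20.5% and 13.5% over all 19099 genes. The higher genes were HERC5, HERC6, IFITM2 and IFI44L. The lower genes were IRF7, IFIT1, IFIT3, OAS1, OAS2, OASL, MX2, IFITM1, BST2, GBP2, XAF1 and TRIM22. The median log2 fold change was -0.56 for the 39 genes and 0.07 for all genes, and 11 of the 39 lay above 0. For 12 of the 16 genes past 2-fold the whole counting interval lay beyond 2-fold. Those whose interval reached inside it were IFIT1, OASL, MX2 and IFITM2.

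Low counts widen a fold change, so the same shares were taken among genes with 100 or more counts in 1 of the libraries. Of the 33 genes that passed this minimum, 4 were then higher and 7 lower (12.1% and 21.2%), beside 12.5% and 11.5% over all 13603 genes. A gene can pass either minimum through the library where it is higher alone, so these shares are not free of low counts. IFITM1, GBP2 and TRIM22 reached 100 counts only in the parental line, and HERC5, IFITM2 and IFI44L only in MM468/PR cells. The scaling bore on the comparison as well. With library size as the only normalization, or with TPM values, the median over all genes went from 0.07 to between 0.27 and 0.39 on the log2 scale, and the share that was higher among all genes changed at least 2-fold went from 60.2% to between 71.2% and 75.5%. The median of the interferon-stimulated genes moved with it and stayed below that of all genes. With TPM values and a pseudocount of 1, it was -0.18 beside 0.27.

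**Figure D1:**
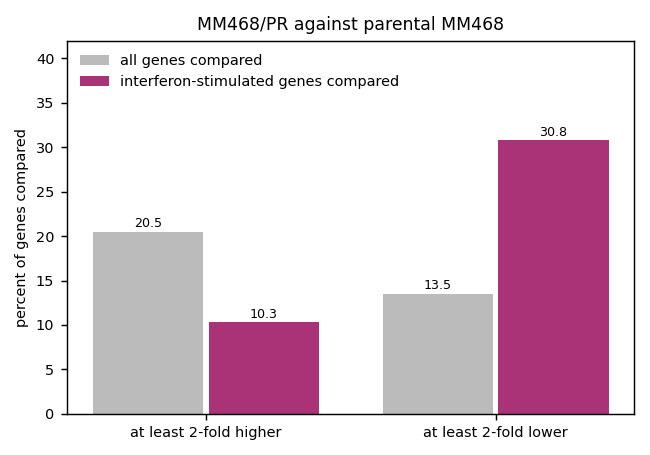
Percent of the genes compared that were at least 2-fold higher (left) or lower (right) in MM468/PR than in parental MM468 cells, for all genes (grey bars) and for the interferon-stimulated genes (purple bars), with 1 library for each line. For the interferon-stimulated genes the bar of lower genes reached 30.8% beside 13.5% of all genes, and that of higher genes 10.3% beside 20.5%.

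The signalling factors of the list differed little, apart from IRF7. STAT2 and IRF9 together with another STAT protein form the complex that binds the ISRE. STAT2 had 1855 counts in the parental line and 2943 in MM468/PR cells, or 27.7 and 35.9 TPM, and its fold had an interval that included 1. IRF9 had 414 and 506 counts and was 1.27-fold lower (1.11 to 1.44). All of the 50-base windows of the IRF9 transcript also occur in an annotated readthrough gene, AL136295.5, so its reads cannot be placed with certainty. IRF1, a transcription factor induced mainly by interferon gamma, had 1021 and 1066 counts, or 20.5 and 17.8 TPM, and was 1.48-fold lower in MM468/PR cells (1.36 to 1.62). IRF7, which amplifies the production of type I interferon, was the only one of the 4 past 2-fold. It had 468 counts in the parental line and 288 in MM468/PR cells, or 16.3 and 8.10 TPM, which made it 2.51-fold lower (2.17 to 2.92). With TPM values and a pseudocount of 1, its log2 fold change was -0.93, which is under 2-fold.

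Both sensors of foreign RNA on the list stayed under 2-fold, on opposite sides of parental MM468. IFIH1 encodes MDA5, a receptor for long double-stranded RNA, and had 926 counts in the parental line and 778 in MM468/PR cells. It was 1.84-fold lower (1.67 to 2.03). DDX60, a helicase that takes part in RNA sensing, had 285 and 566 counts and was 1.28-fold higher in MM468/PR cells (1.11 to 1.48).

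The IFIT genes, whose proteins bind viral RNA and restrain its translation, all had log2 fold changes below 0, with a median of -1.0. IFIT3 was 3.42-fold lower in MM468/PR cells (2.81 to 4.2), with 321 counts in the parental line and 145 in MM468/PR cells, or 9.05 and 3.30 TPM. IFIT1 had 147 and 113 counts, and IFIT2 had 266 and 207. At 2.01-fold lower (1.56 to 2.60) and 1.99-fold lower (1.65 to 2.40), these genes lay on either side of the threshold with intervals that spanned it. IFIT5 had 248 and 315 counts and was 1.22-fold lower (1.03 to 1.44), and the sign of this value turned when TPM was used. The sum of the 4 genes was 982 counts in the parental line and 780 in MM468/PR cells, 1.95-fold lower (1.77 to 2.14). IFIT1, IFIT2 and IFIT3 overlap LIPA on the opposite strand, a lysosomal lipase gene with 2355 and 2124 counts. The libraries were made with a stranded kit, but whether the counting used strand is not given in the sources used here.

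The OAS enzymes, which make the 2-5A messenger that activates RNase L, split within the family. OAS1 had 403 counts in the parental line and 168 in MM468/PR cells, or 16.6 and 5.54 TPM, and was 3.71-fold lower (3.09 to 4.47). OAS2 had 88 and 8 counts. It was 16.7-fold lower in MM468/PR cells (8.27 to 40.7), from a parental level of 2.04 TPM. OAS3, the largest of the 3 enzymes, did not follow, with 892 and 2270 counts or 9.16 and 18.9 TPM. It was 1.64-fold higher in MM468/PR cells (1.52 to 1.78). OASL, which lacks the enzymatic activity and acts on RIG-I, had 46 and 22 counts and was 3.22-fold lower (1.91 to 5.65). On the TPM scale OAS1 stood above OAS3 in the parental line, and in MM468/PR cells OAS3 stood above OAS1.

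MX1 and MX2 are dynamin-like GTPases that trap viral nucleocapsids. MX1 had 775 counts in the parental line and 601 in MM468/PR cells, and lay at the threshold, with a log2 fold change of -1.0 and an interval of 1.79-fold to 2.22-fold lower. MX2, with 14 and 6 counts, entered the comparison only through its parental count. It was 3.55-fold lower (1.30 to 11.5), and this interval does not fix its size.

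Among the genes listed with the ISG15 system, HERC5 and HERC6 were higher in MM468/PR cells while ISG15 itself was not. ISG15 is a ubiquitin-like protein that is attached to newly made proteins. It had 409 counts in the parental line and 443 in MM468/PR cells, or 43.4 and 38.2 TPM, and was 1.43-fold lower (1.25 to 1.64). UBE2L6 had 2004 and 2870 counts and was 1.08-fold lower, a sign that turned with library size alone and with TPM. HERC5, the main ISG15 ligase, had 92 and 369 counts, or 1.66 and 5.73 TPM, and was 2.59-fold higher in MM468/PR cells (2.06 to 3.29). HERC6, a related ligase, had 162 and 966 counts, or 2.88 and 14 TPM, and was 3.85-fold higher (3.26 to 4.58). USP18, which removes ISG15 from proteins and holds back the type I interferon receptor, had 510 and 409 counts and was 1.93-fold lower (1.69 to 2.2). Of the USP18 windows, 23.4% also occur in other genes, mainly USP41.

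Enzymes that act on nucleotides and nucleic acids were under 2-fold. RSAD2, or viperin, makes a chain-terminating nucleotide and had 63 counts in the parental line and 66 in MM468/PR cells. CMPK2, its neighbour and partner on the opposite strand, had 139 and 125. Both were lower in MM468/PR cells, by 1.48-fold (1.03 to 2.12) and 1.72-fold (1.34 to 2.21). SAMHD1, which breaks down deoxynucleotides, had 683 and 1327 counts and was 1.26-fold higher (1.14 to 1.38). ISG20, an exonuclease, had 73 and 87 counts, with an interval that included 1.

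The IFITM genes moved in different directions, and BST2 was lower. IFITM proteins sit in membranes and block the fusion of virus with the cell, and BST2, or tetherin, holds budding virus at the surface. IFITM3 had 3776 counts in the parental line and 3094 in MM468/PR cells, or 418.5 and 278 TPM, and was 1.89-fold lower (1.80 to 1.98). IFITM1 had 376 and 43 counts, or 38 and 3.51 TPM, and was 13.5-fold lower in MM468/PR cells (9.85 to 19). IFITM2 had 51 and 213 counts, or 4.64 and 16.0 TPM, and was 2.70-fold higher (1.98 to 3.74). BST2, on chromosome 19 and with no window shared with another gene, had 368 and 144 counts, or 24.9 and 7.87 TPM, and was 3.95-fold lower (3.25 to 4.83).

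The IFITM genes resemble each other, so reads can be placed on the wrong one. Of the 50-base windows of the IFITM1, IFITM2 and IFITM3 transcripts, 42.3%, 15.8% and 20.3% also occur in other genes. Of the IFITM1 windows, 39% occur in IFITM2, whose annotated gene span runs over IFITM1. The sum of the 3 genes does not depend on how reads were divided between them. It was 4203 counts in the parental line and 3350 in MM468/PR cells, 1.94-fold lower (1.85 to 2.03). Within the sum IFITM3 held 89.8% and 92.4%, IFITM1 held 8.95% and 1.28%, and IFITM2 held 1.21% and 6.36%. In the counts as assigned, IFITM1 and IFITM2 thus changed places between the lines. Whether this came from a different division of reads between them was not tested.

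The guanylate-binding proteins are large GTPases that attack the membranes of intracellular pathogens and respond strongly to interferon gamma. GBP2 had 427 counts in the parental line and 72 in MM468/PR cells, or 7.06 and 0.964 TPM, and was 9.16-fold lower (7.14 to 12). Its neighbours GBP1 and GBP3 were more abundant and stayed under 2-fold. GBP1 had 1186 and 1349 counts, or 27.8 and 25.7 TPM, and was 1.36-fold lower (1.26 to 1.47). GBP3 had 1153 and 1662 counts, with an interval that included 1. Of the GBP1 windows 13.3% occur in other genes, mainly the pseudogene GBP1P1. The sum of the 3 genes was 2766 counts in the parental line and 3083 in MM468/PR cells, 1.39-fold lower (1.32 to 1.46). IRF1 and the 3 GBP genes, grouped as genes driven mainly by interferon gamma and IRF1, gave 1 lower and 0 higher of 4, beside 13.5% lower and 20.5% higher of all genes, with a median of -0.51 on the log2 scale.

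IFI6, IFI35, IFI44 and IFI44L, grouped by their names, all had log2 fold changes above 0. Their median was 0.71, beside 0.07 over all genes, and only IFI44L was past 2-fold. IFI44L had 31 counts in the parental line and 193 in MM468/PR cells, or 0.352 and 1.92 TPM. It was 4.01-fold higher (2.74 to 6.08), with an interval that overlapped that of HERC6. Its neighbour IFI44 had 259 and 543 counts and was 1.35-fold higher (1.17 to 1.58). IFI6, a mitochondrial protein that restrains apoptosis, had 70 and 205 counts and was 1.89-fold higher (1.44 to 2.52). IFI35, a partner of NMI, had 198 and 432 counts and was 1.41-fold higher (1.19 to 1.68).

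TRIM22 and XAF1 were the remaining genes past 2-fold, and both were lower. TRIM22, a ubiquitin ligase that restricts retroviruses, had 710 counts in the parental line and 85 in MM468/PR cells, or 16.6 and 1.61 TPM, and was 12.9-fold lower (10.3 to 16.4). It overlaps TRIM5 on the opposite strand, another antiviral ligase, which had 1162 and 540 counts. As with the IFIT genes, whether the counting used strand is not given in the sources used here. XAF1, which opposes the apoptosis inhibitor XIAP, had 24 and 7 counts and was 5.21-fold lower (2.22 to 14.6). Like OAS2, it passed the count minimum only through parental MM468. SP110, a nuclear body protein, had 319 and 426 counts, with an interval that included 1.

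Neighbouring genes did not always move together. With the positions of GENCODE v29 on GRCh38, 22 of the 41 genes lay in 8 groups with gaps of at most 300000 bases, and the genes as a whole were spread over 15 chromosomes. In the OAS group at chr12:112906777-113011723, OAS1 and OAS2 were lower while OAS3, which lies between them, was not. In the GBP group at chr1:89006666-89150456, GBP2 was lower while GBP3 and GBP1 were under 2-fold. In the group at chr11:307631-615999, which holds IFITM2, IFITM1, IFITM3 and IRF7, IFITM2 was higher and IFITM1 and IRF7 were lower. Reads of IFITM1 and IFITM2 can be placed on the wrong gene, as given above. Other groups were more even. All 4 genes of the IFIT group at chr10:89283694-89421001 had fold changes below 1, and both ligases of the group at chr4:88378739-88506163, HERC6 and HERC5, were higher. CMPK2 and RSAD2 at chr2:6840570-6898239 were both under 2-fold.

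**Figure D2:**
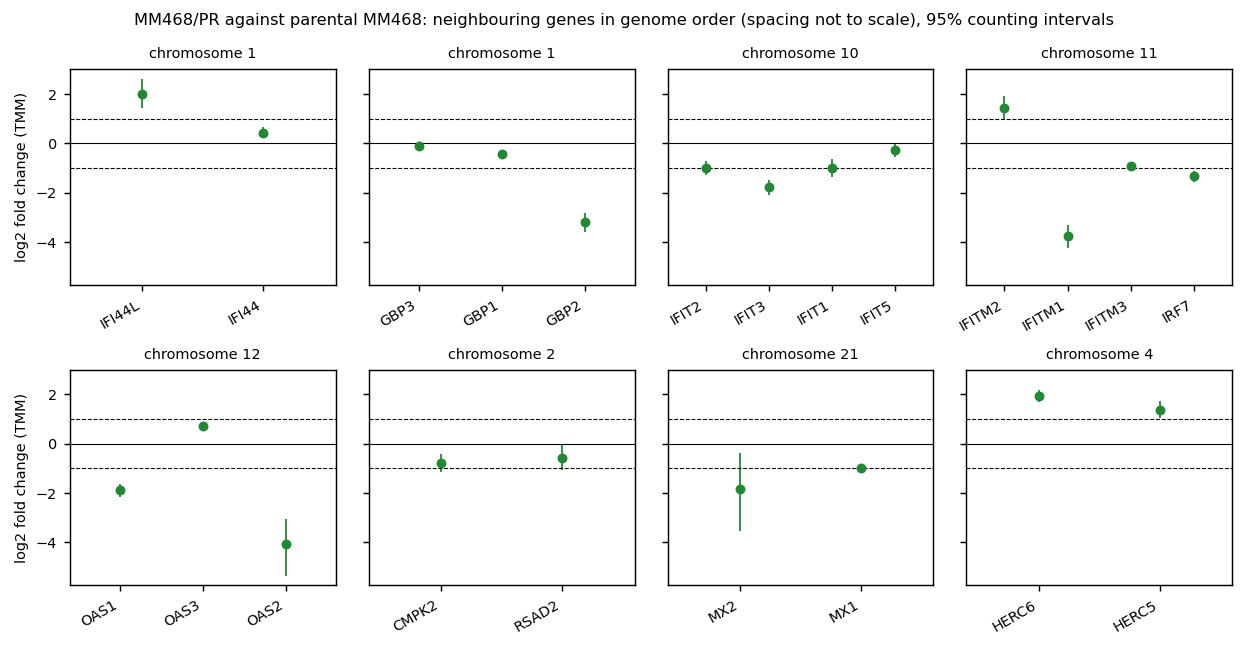
Log2 fold change (TMM) in MM468/PR against parental MM468 cells for the 8 groups of neighbouring genes, in genome order with even spacing, with 95% counting intervals (exact binomial) and dashed lines at 2-fold. OAS3 sits above OAS1 and OAS2, GBP2 sits below its neighbours, and IFITM2 sits above IFITM1, with which it shares sequence.

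Genes with and without the ISRE core near their start were both found among those that moved. Of the 18 genes with the core that were compared, 2 were higher and 4 lower by at least 2-fold in MM468/PR cells. Of the 12 without it, 1 was higher and 2 were lower, and of all genes 20.5% were higher and 13.5% lower. The 9 genes without a promoter entry are outside this split. Among them IRF7, OAS2, OASL, MX2, GBP2 and TRIM22 were past 2-fold lower and IFITM2 past 2-fold higher. IFITM1 and IFITM3, which both carry cores within 52 bases of the start, were lower by 13.5-fold and 1.89-fold. HERC5, with cores at 125, 119 and 74 bases before the start, was higher, and IFIT3, with cores at 156 and 122 bases, was lower.

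A subset of 6 genes, ISG15, IFIT1, IFIT3, IFI44, MX1 and OAS1, belongs to a signature known as the interferon-related DNA damage resistance signature, which has been linked to resistance to DNA-damaging drugs and radiation in tumours. In MM468/PR cells 0 of the 6 were at least 2-fold higher and 3 were lower (OAS1, IFIT1 and IFIT3), beside 20.5% and 13.5% of all genes, with a median of -1.0. The highest of the 6 was IFI44.

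The other genes of the pathway were read from a list of 74. Interferon transcripts themselves were nearly absent. Of 21 interferon genes, 18 had no counts in either library, IFNB1 had 0 in the parental line and 2 in MM468/PR cells, and IFNL2 had 3 and 0. The exception was IFNE, the epithelial interferon epsilon, with 15 and 94 counts. It was 4.03-fold higher in MM468/PR cells (2.33 to 7.52).

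All 9 receptor and kinase genes had counts in both libraries, and 0 of them passed 2-fold in either direction. Of all genes, 20.5% were higher and 13.5% lower, or 12.5% and 11.5% with a minimum of 100 counts. Most genes were thus under 2-fold as well, and 9 genes are too few to set this group apart. IFNAR1 and IFNAR2, the chains of the type I receptor, had 3959 and 1499 counts in parental MM468 and 4836 and 2018 counts in MM468/PR cells. JAK1, the kinase that all interferon receptors use, had 5788 and 6881 counts. TYK2, the kinase bound to IFNAR1, had 13429 and 11828 counts, with a log2 fold change of -0.81, the lowest of the 9.

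Over the whole list 51 genes were compared, with 4 higher by 2-fold or more and 6 lower by as much (7.84% and 11.8%), with a median of -0.34 on the log2 scale. Of all genes, 20.5% were higher and 13.5% lower, and with a minimum of 100 counts 12.5% and 11.5%. The share of lower genes in the list was thus close to that of all genes, while the share of higher genes was smaller. The shares of the list were not taken at the minimum of 100 counts. Among sensors and adaptors, STING1, the adaptor of cytosolic DNA sensing, had 1667 counts in the parental line and 793 in MM468/PR cells and was 3.25-fold lower (2.99 to 3.54). CGAS, the DNA sensor that signals through it, was low at 33 and 40 counts. IFI16, another DNA sensor, had no counts in either library. Among inhibitors of the pathway, SOCS3 had 147 and 539 counts and was 2.37-fold higher in MM468/PR cells (1.97 to 2.86), while SOCS1 had 70 and 72 counts and was under 2-fold.

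Among further stimulated genes, 28 in number with 25 compared, 2 were higher and 5 lower by at least 2-fold (8% and 20%), beside 20.5% and 13.5% of all genes. TNFSF10, which encodes the death ligand TRAIL, had 927 counts in the parental line and 510 in MM468/PR cells and was 2.81-fold lower (2.52 to 3.14). TRIM5 was 3.33-fold lower (3 to 3.69). Its overlapping partner TRIM22 was lower too, but their counts may not be separate, since whether the counting used strand is not given. HELZ2, a helicase that acts as a nuclear receptor coactivator, had 1084 and 536 counts and was 3.13-fold lower (2.82 to 3.48). TRIM21, a cytosolic antibody receptor, had 192 and 131 counts and was 2.27-fold lower (1.81 to 2.85), and RTP4 had 31 and 15 and was 3.18-fold lower (1.68 to 6.38). The higher genes were the neighbours SAMD9 and SAMD9L, which limit translation in infected cells. SAMD9 had 431 and 1341 counts and was 2.01-fold higher (1.80 to 2.25), and SAMD9L had 107 and 343 and was 2.07-fold higher (1.66 to 2.60). CXCL10 and CXCL11, chemokines that interferon gamma induces strongly, had at most 3 counts in either library.

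**Figure D3:**
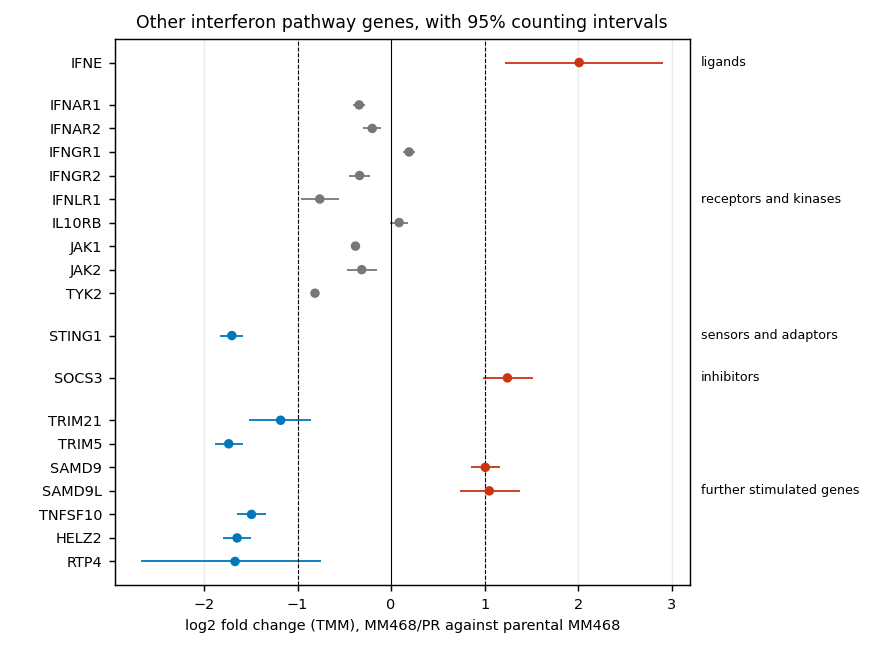
Log2 fold change (TMM) in MM468/PR against parental MM468 cells for the other pathway genes, with 95% counting intervals (exact binomial) and dashed lines at 2-fold. Shown are the compared interferon, receptor and kinase genes in grey or colour, and the genes of the other roles that were at least 2-fold higher (red) or lower (blue). IFNE sits farthest to the right, no receptor or kinase passes a dashed line, and STING1, TRIM5 and HELZ2 are among the genes farthest to the left.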

How the data were processed

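RNA-seq libraries of the parental line and of MM468/PR cells (1 each) were made with a stranded mRNA kit. A further line is not reported here. Per the labels and the submitters' processing notes, GRCh38, Trimmomatic 0.39, HISAT2 2.2.1 and StringTie 2.2.1 were used. The authors deposited unnormalized whole-number read counts, beside FPKM and TPM values that they had computed. Counts were analysed with edgeR 4.0.16 in R 4.3.3 (TMM normalization, prior count 0.125, 10 or more counts in 1 of the 2 libraries). The quasi-likelihood test could not be fitted, since 1 library a line leaves no residual spread, so genes at least 2-fold changed were counted. Intervals are exact binomial 95% intervals of a count ratio. The fold-change step was tested on simulated counts in which few genes changed, evenly up and down. That does not test the scaling where many genes differ, as between these lines. Positions and shared 50-base windows came from GENCODE v29, promoters from RefSeq GRCh38.p14, and figures from matplotlib 3.10.9. RIGI was matched by NCBI Gene ID.

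The genes and lists were chosen with earlier results of these data known. All 41 genes are named. Of the other pathway genes, the ligands, receptors and kinases and those past 2-fold could be named, and a few others were named after their values were seen. The alternatives tried were size factors of DESeq2 1.42.0, library size alone, TMM over all 3 libraries of the series, a prior count of 2, other count filters, the deposited TPM (pseudocounts 1 and 0.1) or FPKM (pseudocount 1), and thresholds of 1.5-fold and 4-fold.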

Additional observations from a re-analysis of the deposited data

How the results depend on the processing

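No paired analysis was possible because each line has a single library, and no library could be left out for the same reason. With DESeq2 size factors, TMM over the 3 libraries of the series, a prior count of 2, no count minimum, or only genes counted in all 3, the numbers of changed genes stayed within 1.5 times those reported, and the median moved by less than 0.1. Library size alone gave 5 higher, 11 lower and a median of -0.34. A threshold of 1.5-fold gave 6 higher and 18 lower. Under the settings on counts at 2-fold, 15 of the 16 genes past 2-fold kept their call wherever they were compared, all but IFIT1. With the TPM and FPKM settings included, 8 of the 16 kept it throughout. The call was lost under some setting for IRF7, IFIT1, OAS2, OASL, MX2, XAF1, HERC5 and IFI44L. OAS2, OASL, MX2 and XAF1 were not compared at a minimum of 100 counts. That minimum gave 7 lower genes, TPM with a pseudocount of 1 gave 7 lower and a median log2 fold change of -0.18, TPM with 0.1 gave a median of -0.20, FPKM gave 2 higher, 6 lower and a median of -0.16, and 4-fold gave 1 higher and 5 lower. A pseudocount shrinks the fold of low genes, and a stricter threshold or minimum leaves fewer genes by construction. For the other shifts the cause was not tested. Signs turned under some setting for GBP3, IFIT5, SP110 and UBE2L6, none of which was past 2-fold. Depth limits OAS2, MX2, XAF1 and EPSTI1, with 8, 6, 7 and 0 counts in their lower library.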
